A study of Mus musculus with 2 samples.

Results

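Chil3-high mononuclear phagocytes are a small population of tumour-infiltrating leukocytes that carry transcripts of the complement component C1q together with Chil3, and 81 of them were found among 22639 cells kept from 2 libraries. They were selected on single-cell UMI counts (a UMI marks 1 captured RNA molecule). Cells were kept from 300 genes and 500 UMIs up, when mitochondrial genes gave no more than 15% of UMIs. C1qa, C1qb and C1qc together had to reach 0.3% of the UMIs of a cell and Chil3 had to reach 0.2%. No Cd3d, Cd3e or Cd3g UMI was allowed, S100a8 and S100a9 together had to stay under 1% of UMIs, Ccl8 under 0.1%, and Mki67 and Top2a together under 3 UMIs. The levels of these genes are therefore a property of the selection and are given as a description. In plain terms, the cells held more RNA of Fn1, Thbs1, Plac8, Ly6c2 and the coagulation factor gene F10 than C1q-positive cells without a Chil3 UMI, and less RNA of MHC class II genes, Ccl17 and Tmem176a, in both libraries. The class II difference was smaller in the Lyz2-icre library. They fell largely into cells with Plac8 or Ly6c2 UMIs and cells rich in Arg1, and the second kind made up a larger share of the cells from Lyz2-icre mice. Arg1 was also higher in the Lyz2-icre library in C1q-positive cells without a Chil3 UMI.

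Chil3 encodes Ym1, a secreted chitinase-like lectin of rodents that binds sugars but lacks chitinase activity. It is a widely used marker of alternative macrophage activation in mice, and it is also transcribed in classical monocytes, in neutrophil precursors and in alveolar macrophages. C1q, by contrast, is made mainly by differentiated tissue macrophages. Both transcripts in a cell do not by themselves tell a recruited monocyte from an alternatively activated macrophage. The origin of the cells was not tested. Arg1 encodes arginase, which breaks down arginine and is a second textbook marker of alternative activation.

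The cells came from tumours of MC38, a mouse colon adenocarcinoma line. The hosts were either SPP1fl/fl mice (control), whose Spp1 alleles are floxed but intact, or SPP1fl/fl-Lyz2-icre mice, in which Cre recombinase driven by the myeloid gene Lyz2 can delete Spp1 (osteopontin) in macrophages, monocytes and neutrophils. Live CD45-positive leukocytes were sorted, and 1 library of 10x Genomics 3-prime RNA was made per genotype, so differences between the genotypes have no test and the spread between mice is unknown. The number, age and tumour stage of the mice were not given in the sources used here. All intervals below are 95% intervals that cover the counting of UMIs or cells only, and they are too narrow where the UMIs of a gene lie in few cells. The kept cells of both libraries held 88047097 and 98256831 UMIs, control first. The 2 libraries shared 43 barcodes, none of them in a Chil3-high cell.

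Promoter sequences are shown first. Chil3 has a neighbouring copy, Chil4, of nearly the same sequence, and reads that fit both genes cannot be told apart. Transcript sequences were not compared, and the promoter windows do not bear on how reads were counted. On mm10, Chil3 lies at chr3:106147554-106167564 and Chil4 at chr3:106201490-106219507, both on the minus strand. The 250 bases before the start site of Plac8 and Ly6c2, the genes ranked highest in the cells over both libraries, are given for comparison (RefSeq, GRCm38.p6). Capitals mark AGGAAGT or its reverse complement, the core recognised by PU.1 and related ETS factors. The windows are chr3:106167565-106167814 (Chil3), chr3:106219480-106219729 (Chil4), chr5:100572206-100572455 (Plac8) and chr15:75111972-75112221 (Ly6c2), all on the minus strand and written 5′ to 3′.
Chil3: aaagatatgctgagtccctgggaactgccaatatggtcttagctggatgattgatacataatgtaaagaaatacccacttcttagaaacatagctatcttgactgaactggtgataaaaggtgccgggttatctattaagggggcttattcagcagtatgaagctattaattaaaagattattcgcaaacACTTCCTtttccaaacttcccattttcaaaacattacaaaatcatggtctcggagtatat
Chil4: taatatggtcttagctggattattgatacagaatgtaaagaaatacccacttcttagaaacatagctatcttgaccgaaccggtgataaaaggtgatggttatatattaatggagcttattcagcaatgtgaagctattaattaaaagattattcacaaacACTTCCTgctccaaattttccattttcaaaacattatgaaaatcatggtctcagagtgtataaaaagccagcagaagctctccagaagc
Plac8: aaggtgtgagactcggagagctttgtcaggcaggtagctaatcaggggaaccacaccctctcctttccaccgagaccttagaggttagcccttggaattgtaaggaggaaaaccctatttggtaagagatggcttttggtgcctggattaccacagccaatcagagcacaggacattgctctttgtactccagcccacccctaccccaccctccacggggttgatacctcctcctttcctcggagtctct
Ly6c2: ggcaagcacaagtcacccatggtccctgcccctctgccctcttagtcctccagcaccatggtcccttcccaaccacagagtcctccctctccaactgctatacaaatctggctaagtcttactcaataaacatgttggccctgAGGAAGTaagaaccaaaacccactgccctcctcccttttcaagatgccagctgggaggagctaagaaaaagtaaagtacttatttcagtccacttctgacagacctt
Over 221 aligned bases of the first 2 windows, 201 were identical (91.0%). The motif began 60 bases before the Chil3 start, 89 before the Chil4 start and 107 before the Ly6c2 start, by the starts of RefSeq. These letters did not occur in the Plac8 window. The Chil4 and Plac8 windows reach into the gene bounds of GENCODE vM21, which give the Chil4 position above. The distances for Chil3 and Chil4 therefore cannot be set against each other. It occurred on either strand in 7.69% of 32851 mouse promoter windows of this length, and in 2 of the 9 windows matched for the 12 genes named below as higher in the cells. TTNCNNAA, a C/EBP-type motif, occurred in 6 of the 9 against 36.8% of all windows, TATAAA in 2 of 9 against 12.4%, and a STAT-type motif (TTC and GAA with 4 bases between them) in 0 of 9 against 5.85%. Both strands were searched for each. These matches are descriptions of letters and not of binding.

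The control library held 27 Chil3-high cells of 8724 kept (0.309%, Clopper-Pearson interval 0.204 to 0.450) and the Lyz2-icre library 54 of 13915 (0.388%, 0.292 to 0.506). The ratio of these shares was 1.25 (exact conditional interval 0.776 to 2.07), which spans 1 and covers the counting of cells only. With 1 library per genotype, a difference in abundance between genotypes cannot be tested. Among C1q-positive cells that met the same other limits, the shares were 27 of 4142 (0.652%) and 54 of 7194 (0.751%), a ratio of 1.15 (0.713 to 1.90). By Xist and Y-linked transcripts, 17 control and 33 Lyz2-icre cells were female and 3 and 4 were male, so each library held cells of both sexes. Female cells alone gave a ratio of kept cells of 1.30 (0.704 to 2.49).

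Chil3 itself ranged from 0.204% to 2.86% of UMIs in control Chil3-high cells (median 0.343%) and from 0.200% to 1.68% in Lyz2-icre ones (median 0.331%). In shallow cells the limit was met by few molecules. The shallowest control and Lyz2-icre cells, of 851 and 572 UMIs, each held 2 Chil3 UMIs. The limit cut through a continuous range, with 9 control and 17 Lyz2-icre cells between 0.2% and 0.25% and 14 and 32 C1q-positive cells between 0.15% and 0.2%. Most cells this rich in Chil3 were under the C1q limit. Of 154 control and 206 Lyz2-icre kept cells at 0.2% Chil3 or more, 122 and 136 were under the C1q limit. The Chil3-high cells described here held 11.8% and 13.8% of all Chil3 UMIs of their libraries, and a single control cell held 34.5% of the 1096 Chil3 UMIs of the control cells.

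The C1q genes were at a median of 0.549% of UMIs in control and 0.885% in Lyz2-icre Chil3-high cells, against 1.28% and 1.24% in C1q-positive cells without a Chil3 UMI. Chil3-high cells under the C1q limit had medians of 0.0359% and 0.0380%, and cells with at least 3 Cd3 UMIs 0.0853% and 0.105%. The C1q limit sets the difference from the Chil3-high cells left out, and within the limit the cells held less C1q than their C1q-positive counterparts. Median depth was 7747 and 4460.5 UMIs per Chil3-high cell, less than the 9374 and 6334 of C1q-positive cells without a Chil3 UMI. The part that free RNA or droplets with 2 cells played in the joint presence of C1q and Chil3 was not tested.

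The mononuclear phagocyte lineage was looked at with its genes Csf1r, Cd68 and Adgre1, which do not tell macrophages from monocytes. A UMI of at least 1 of them, a low limit, was present in 26 of 27 control and 52 of 54 Lyz2-icre cells. Csf1r, the receptor that macrophages need for survival, was at 532 and 498 CPM (UMIs of the gene per 1e+06 UMIs of the summed cells, control first), close to the 562 and 529 CPM of the C1q-positive cells without Chil3. Cd68, a lysosomal glycoprotein, was at 301 against 431 CPM in control and at 594 against 491 CPM in the Lyz2-icre library. Adgre1, which encodes the macrophage antigen F4/80, was at 201 against 285 CPM and at 230 against 219 CPM, and its median per cell was lower than in the comparison cells in both libraries (0.0108% against 0.0216% and 0.00699% against 0.0144%). Of 8 neutrophil markers, Cxcr2, Ly6g, Camp, Ngp and G0s2 had no UMI in the Chil3-high cells of either library. The list summed to 153 and 68.9 CPM, above the 38.0 and 28.5 CPM of the C1q-positive cells without Chil3. UMIs of the list were in 12 of 27 and 16 of 54 cells, and the part of neutrophil RNA in the results was not tested. In Chil3-high cells the eosinophil and erythroid lists had no UMI, and the T-cell list had 0 and 3 UMIs. Arg1, a marker listed for these cells, had a UMI in 17 of 27 control cells and in 46 of 54 Lyz2-icre cells. It was thus common but not general, and in control cells at 1295 CPM it stood less far above the 758 CPM of the comparison cells than in Lyz2-icre cells, at 2968 against 1117 CPM.

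Of the 7 chitinase and chitinase-like genes, Chil3 alone was abundant, at 4780.3 CPM in the control library and 4011 CPM in the other. Its neighbour Chil4 (Ym2), the active chitinases Chia1 and Chit1, and the lectin Chil1 had no UMI in the Chil3-high cells of either library. Chid1 was at 39.3 and 22.95 CPM and Ctbs, a lysosomal chitobiase, at 21.8 and 32.8 CPM, levels of a few UMIs only. Reads that fit both Chil3 and Chil4 cannot be told apart, so Chil4 is uncertain at this level.

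Each library was then compared within itself, Chil3-high cells (27 and 54) against C1q-positive cells without a Chil3 UMI that met the same limits (3732 and 6341). A gene was counted when it was at least 1.5-fold apart, on CPM with 5 CPM added, with at least 20 CPM and 30 UMIs in the higher group. In control cells 118 of 3284 genes (3.59%) were higher and 632 (19.2%) lower. In Lyz2-icre cells 61 of 3935 (1.55%) were higher and 584 (14.8%) lower. The same direction in both libraries was met by 20 of 2481 genes (0.806%) for higher and 105 (4.23%) for lower. The limit of 30 UMIs corresponded to 131 and 98.4 CPM in Chil3-high cells, and 20 CPM to 4.59 and 6.10 UMIs there against 706 and 825 UMIs in the comparison cells, so low genes could be counted as lower through counting error and could not be counted as higher.

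Plac8, a small cysteine-rich protein gene of monocytes and other leukocytes, ranked first over both libraries together. It was at 1016 CPM (890 to 1155) in control Chil3-high cells and 33.5 CPM in their comparison cells, and at 279 CPM (223 to 345) against 32.7 CPM in the Lyz2-icre library. Its UMIs came from 14 of 27 and 15 of 54 cells, so about as many cells lacked it as carried it in the control library and most lacked it in the other. Ly6c2, which encodes the classical monocyte surface antigen Ly6C, was at 388 against 16.4 CPM and at 216 against 29.2 CPM, with UMIs in 13 and 18 cells. After thinning each cell to 2000 UMIs, Plac8 was detected in 54.5% of 22 control and 16.3% of 43 Lyz2-icre Chil3-high cells, and in 2.93% and 3.15% of their comparison cells. T cells also transcribe Plac8, and cells with at least 3 Cd3 UMIs, part of which held C1q RNA as well, were at 17.8% and 21.2%. Chil3-high cells under the C1q limit held far more Plac8, at 3424 and 2884 CPM, and C1q-positive cells with Chil3 under its limit held 204 and 212 CPM, so the Chil3-high C1q-positive cells lay between these groups. Their Ly6c2 level was likewise below the 780.3 and 1384 CPM of the cells under the C1q limit.

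Fn1, which encodes the matrix protein fibronectin, was the most general of the higher genes. It had UMIs in 24 of 27 control and 53 of 54 Lyz2-icre Chil3-high cells. Per cell it ranged from 0 to 1.03% of UMIs in the control cells (median 0.241%) and from 0 to 1.75% in the Lyz2-icre cells (median 0.313%), with medians of 0.0362% and 0.0590% in the comparison cells. Cells of the groups overlapped, since single comparison cells reached 2.31% and 2.74%. The summed levels were 3084 against 1065 CPM (log2 ratio 1.53) and 3548 against 1147 CPM (1.63). Unlike Plac8, Fn1 was also higher than in Chil3-high cells under the C1q limit, which held 1926 and 2568 CPM.

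Other secreted and matrix genes were higher as well. Thbs1, which encodes the adhesive glycoprotein thrombospondin 1, was at 1243 against 566 CPM and at 899 against 350.3 CPM. F10, coagulation factor X, was at 214 against 75.9 CPM and at 305 against 108 CPM, with UMIs in 15 and 36 cells. F13a1, the catalytic subunit of coagulation factor XIII, was at 419 against 192 CPM and at 348 against 145 CPM. Among genes of other functions, Mgst1 (a microsomal glutathione transferase) was at 166 against 52.9 and 164 against 61.1 CPM, and Clec4e (the lectin receptor Mincle) at 227 against 118 and 174 against 78.4 CPM. Gda (guanine deaminase) and Rgcc (a cell cycle regulator) had log2 ratios of 0.94 and 0.91 in control and of 0.91 and 1.02 in Lyz2-icre cells. With every cell thinned to 2000 UMIs before selection, F13a1 was no longer higher in either library (log2 ratios of -0.20 and -0.032), nor was Gda in control (-0.14).

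Ccl24 and Cxcl3, chemokine genes, met the same rule but lay in few cells. Ccl24, an attractant of eosinophils, was at 331 against 6.23 CPM and at 190.2 against 41.9 CPM, in 4 control and 8 Lyz2-icre cells. A single control cell held 71.1% of the Ccl24 UMIs, and without it the level was 104 CPM. Cxcl3, an attractant of neutrophils, was at 288 against 86.1 CPM in control, but 97.0% of its UMIs lay in 1 cell. Without that cell it was at 9.49 CPM, below the comparison cells, while in Lyz2-icre cells without their top cell it was at 84.6 against 45.4 CPM.

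**Figure D1:**
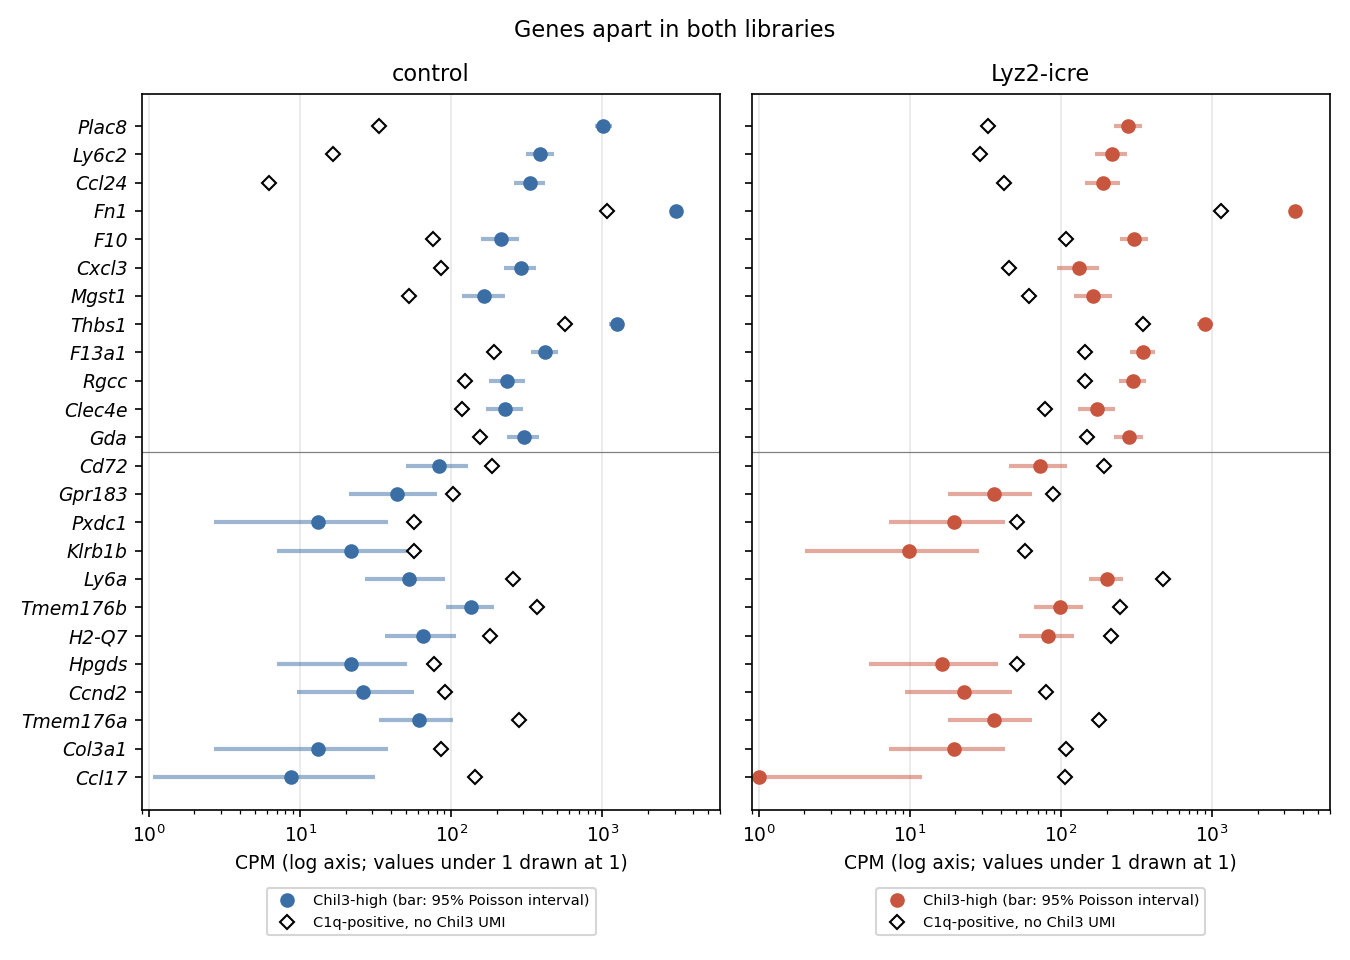
Level of 12 genes named as higher and 12 named as lower in Chil3-high cells (filled circles, with 95% Poisson intervals) than in C1q-positive cells without a Chil3 UMI (open diamonds), in CPM on a log axis, for the control library (left) and the Lyz2-icre library (right). The Plac8 circles stand at 1016 and 279 CPM (control first) and its diamonds at 33.5 and 32.7 CPM.

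The genes lower in Chil3-high cells of both libraries were led by Ccl17, a chemokine of dendritic cells and alternatively activated macrophages that binds Ccr4. It was at 8.72 CPM (2 UMIs) against 143 CPM in control and had 0 UMIs against 107 CPM in the Lyz2-icre library, at least 10.9-fold lower there by a floor of 3 counts over the group. Tmem176a and Tmem176b, neighbouring genes of intracellular membrane proteins of dendritic cells and macrophages, were both lower. Tmem176a was at 61.1 against 280.2 CPM and at 36.1 against 179 CPM, and Tmem176b at 135 against 368 CPM and at 98.4 against 246 CPM. The remaining genes of the 12 were Col3a1 (a collagen), Ccnd2 (cyclin D2), Hpgds (a prostaglandin D synthase), H2-Q7 (a nonclassical MHC class I gene), Ly6a (Sca-1), Klrb1b, Pxdc1, Gpr183 (an oxysterol receptor) and Cd72. Their log2 ratios ranged from -2.33 (Col3a1) to -1.13 (Cd72) in control cells and from -2.19 (Col3a1) to -1.19 (Pxdc1 and Gpr183) in Lyz2-icre cells. Most control comparison cells had little of these genes. Their median was 0 for Ccl17, Col3a1, Ccnd2, Hpgds, Ly6a, Klrb1b, Pxdc1 and Gpr183, while single cells reached 1.28% (Ccl17) and 3.28% (Col3a1) of UMIs. The median was above 0 for Tmem176a, Tmem176b, H2-Q7 and Cd72. H2-Q7 belongs to a family of near-identical genes whose reads can be hard to tell apart. Ly6a was no longer lower in the Lyz2-icre library when the Chil3 limit was set to 0.1% (log2 ratio 0.16).

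Across the gene lists, the 13 recruited monocyte genes stood furthest above the comparison cells in the control library. Of those that could be counted, 9 of 11 were higher in control (3.59% of all genes) and 6 of 8 in Lyz2-icre Chil3-high cells (1.55% of all genes), and none was lower. The median log2 ratio was 3.04 in control and 1.24 in the Lyz2-icre library, against 0.13 and 0.00 over all genes at 20 CPM. Plac8, Ly6c2, Fn1, F13a1 and Clec4e, described above, belong to this list. In control cells Hp (haptoglobin) was at 288 against 4.93 CPM, Vcan (versican) at 249 against 12.5 CPM and Gsr (glutathione reductase) at 201 against 9.09 CPM. In Lyz2-icre cells the same 3 genes were at 16.4, 36.1 and 19.7 CPM, from 5, 11 and 6 UMIs. Ccr2, the receptor that lets monocytes leave bone marrow, was little apart at 807 against 626 and 774 against 617 CPM.

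Antigen presentation genes lay on the other side. Of 7 MHC class II genes that could be counted, 6 were lower in control (19.2% of all genes) and 4 in Lyz2-icre cells (14.8%), with none higher and median log2 ratios of -1.17 and -0.62. H2-Eb1, a beta chain of the class II molecule, was at 2046 against 5151 CPM and at 3647 against 6180 CPM. Cd74, the invariant chain, was at 7218 against 13624 CPM and at 10697 against 14939 CPM. In MHC class I genes 4 of 13 and 4 of 14 were lower, with medians of -0.46 and -0.20.

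Matrix and protease genes were higher in 4 of 11 and 4 of 10 and lower in 3 of 11 and 1 of 10, with medians of 0.39 and 0.62. Over all genes, 3.59% and 1.55% were higher and 19.2% and 14.8% lower, which is the background for each list here. Beside Fn1 and Thbs1, Mmp8, a neutrophil and monocyte collagenase, was at 87.2 against 5.50 CPM in control and at 26.2 against 6.04 CPM in Lyz2-icre cells. The S100, annexin and galectin genes had medians of 0.30 in both libraries, with 4 of 10 higher in control and 1 of 10 in Lyz2-icre cells. S100a6 was at 1762 against 1167 CPM and at 2387 against 1443 CPM. Of the 14 mature macrophage genes none was higher in either library, and 4 and 2 of 13 were lower, the second a share near the background, with medians of -0.36 and 0.01. Cx3cr1, the fractalkine receptor, was at 253 against 417 CPM and at 144 against 304 CPM.

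Alternative activation genes did not move as one list. Of 12 that could be counted, 2 were higher and 3 lower in control, and 4 were higher and 2 lower in Lyz2-icre cells, with medians of 0.02 and 0.30. The lower counts are near the all-gene shares of 19.2% and 14.8%, and the higher counts stand against 3.59% and 1.55%. Ccl24 was at the higher end and Ccl17 at the lower end in both. Pro-inflammatory genes had medians of -0.27 and 0.31, with Il1b close to the comparison cells at 1906 against 1841 CPM and 1741 against 1416 CPM. Oxidative phosphorylation, checkpoint, Fc receptor and lysosome genes had medians between -0.21 and 0.15 in both libraries.

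**Figure D2:**
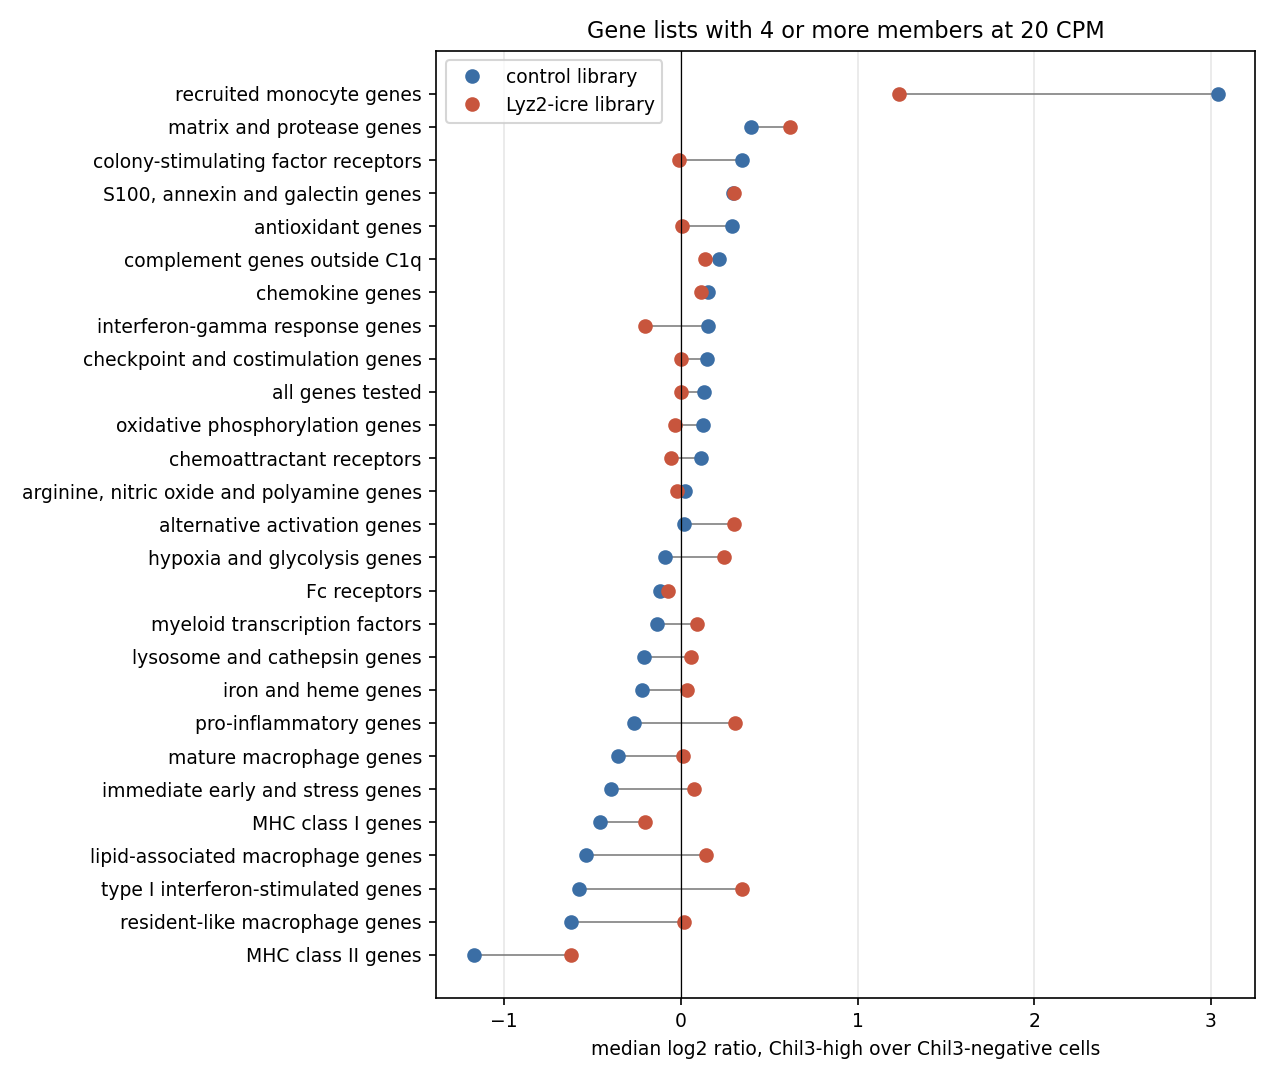
Median log2 ratio of CPM, Chil3-high over C1q-positive cells without a Chil3 UMI, for gene lists with at least 4 members at 20 CPM, in the control (blue) and Lyz2-icre (red) libraries, each joined by a grey line. Recruited monocyte genes stand at 3.04 and 1.24 and MHC class II genes at -1.17 and -0.62.

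Chil3-high cells were not uniform, and a split chosen after the cells were seen, by Plac8 or Ly6c2 and by Arg1, is given as a description. Of 27 control cells, 17 carried a Plac8 or Ly6c2 UMI (63.0%, Clopper-Pearson interval 42.4 to 80.6) and 4 had Arg1 at 0.2% of UMIs or more (14.8%, 4.19 to 33.7). Of 54 Lyz2-icre cells, 22 carried a Plac8 or Ly6c2 UMI (40.7%, 27.6 to 55.0) and 26 were at that Arg1 level (48.1%, 34.3 to 62.2). Both were met by 1 control and 3 Lyz2-icre cells, and 7 and 9 met neither. The limits are unlike, since 1 UMI was enough for Plac8 or Ly6c2. Of the cells with Plac8 or Ly6c2, 10 of 17 in control and 16 of 22 in the Lyz2-icre library held an Arg1 UMI. Among cells of at least 2000 UMIs the Arg1-rich cells were 4 of 22 and 23 of 43, and those with Plac8 or Ly6c2 15 of 22 and 19 of 43. Per cell, Arg1 ranged from 0 to 0.653% of UMIs in control (median 0.0128%) and from 0 to 1.21% in Lyz2-icre cells (median 0.197%). The cells of both libraries overlapped in Arg1, and most control cells lay in the lower part of the range. In C1q-positive cells without a Chil3 UMI, Arg1 was also higher in the Lyz2-icre library, at 758 and 1117 CPM (control first). The share of Arg1-rich cells among those comparison cells is not given here, so the larger share is not shown to be particular to Chil3-high cells.

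**Figure D3:**
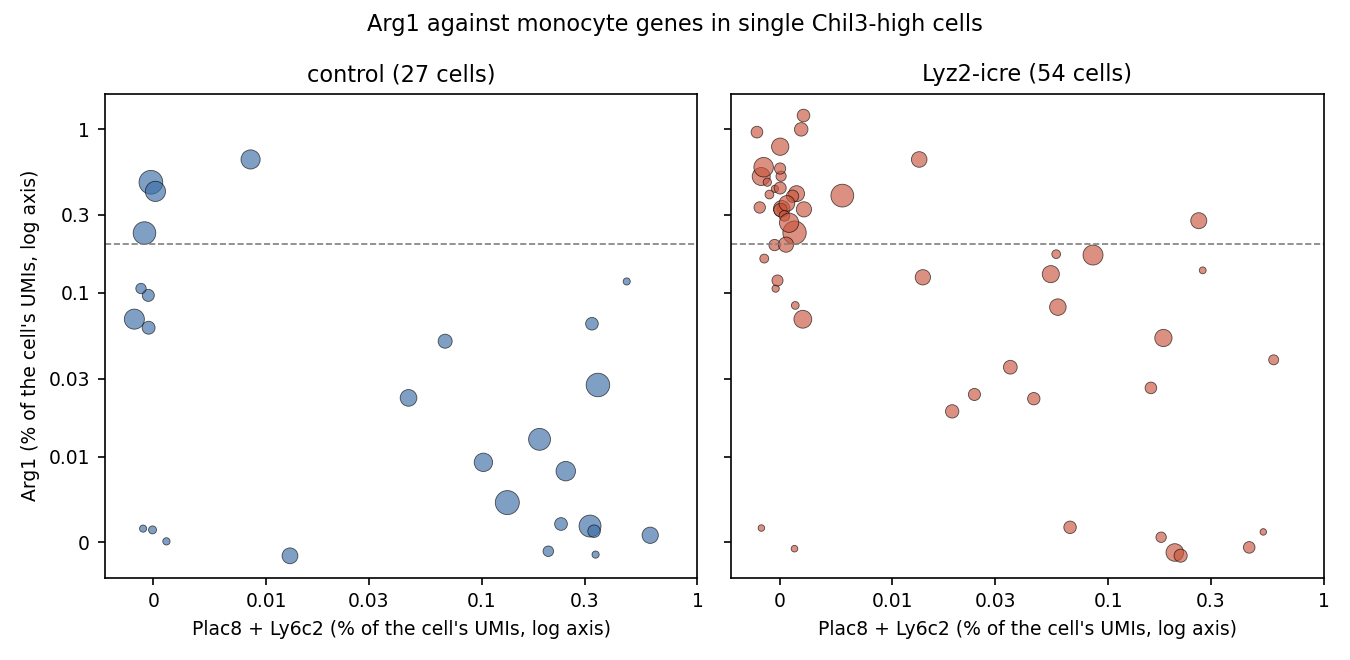
Each point is 1 Chil3-high cell of the control (left, 27 cells) or Lyz2-icre library (right, 54 cells), with Plac8 plus Ly6c2 on the x axis and Arg1 on the y axis, both as a percent of its UMIs on log axes with zeros drawn at the edge with a small random offset. Point area grows with the UMI total, and the dashed line is 0.2% Arg1, above which 4 control and 26 Lyz2-icre cells lie.

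The Arg1-rich cells without Plac8 or Ly6c2 numbered 3 in control and 23 in the Lyz2-icre library, of which 19 were female and 0 male. In the Lyz2-icre library they held Fn1 at 4297 CPM, Slc7a2 at 1136 CPM and Mmp12 at 1662 CPM. The cells with Plac8 or Ly6c2 and less Arg1 (19 cells, 5 female and 4 male) held Fn1 at 1692 CPM, Slc7a2 at 176 CPM and Mmp12 at 88.0 CPM. Slc7a2 imports arginine and Mmp12 is the macrophage elastase. F7, coagulation factor VII, was at 320 CPM in the Arg1-rich cells and at 9.78 CPM (1 UMI) in the others. Thbs1 and Il1b ran the other way, at 533 and 1165 CPM in the Arg1-rich cells and at 1584 and 3100 CPM in the others. In control the 3 Arg1-rich cells held Fn1 at 5989 and F7 at 268 CPM, and the 16 cells with Plac8 or Ly6c2 and less Arg1 held Fn1 at 1589 CPM and no F7 UMI. Mmp12 and Slc7a2 were at 206 and 309 CPM in the 3 Arg1-rich control cells and at 71.0 and 21.3 CPM in the 16 others. Other genes ran opposite ways in the libraries. Apoe, a lipid carrier of macrophages, was at 3561 CPM in the Arg1-rich and 6727 CPM in the other control cells, and at 11485 and 7208 CPM in the Lyz2-icre cells. Ccr2 was at 885 and 724 CPM in these control cells, and at 398 and 1066 CPM in the Lyz2-icre cells. The control values of the Arg1-rich kind rest on 3 cells. In Arg1-rich cells of either library F10 differed little, at 348 and 370.5 CPM (Lyz2-icre first).

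In the comparison of genotypes the targeted gene comes first. Spp1 had 405 UMIs (1766 CPM) in control and 2 UMIs (6.56 CPM) in Lyz2-icre Chil3-high cells, with UMIs in 20 of 27 and 2 of 54 cells. One control cell held 56.8% of its UMIs, and without it Spp1 was at 805 CPM. In C1q-positive cells without Chil3 it was at 672 and 6.09 CPM. The deleted part of Spp1 was not given in the sources used here, and a 3-prime tag can lie outside it. Lyz2, the gene that carries the Cre allele, was at 13922 and 2207 CPM in the Chil3-high cells (control first), against 11898 and 4276 CPM in the comparison cells. A Lyz2 UMI was present in 27 of 27 control cells, and 17 of 54 Lyz2-icre cells had none. Of the Lyz2-icre cells with Plac8 or Ly6c2, 20 of 22 had a Lyz2 UMI, and 17 of 32 without them did. Lyz2 was at 483 CPM in Arg1-rich Lyz2-icre cells without these transcripts and at 5634 CPM in the cells with Plac8 or Ly6c2 and less Arg1. In control the same kinds of cell were at 12225 and 12574 CPM, close to each other.

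Of 1552 genes that could be counted between the 27 control and 54 Lyz2-icre Chil3-high cells, 163 (10.5%) were at least 1.5-fold higher and 172 (11.1%) at least 1.5-fold lower in Lyz2-icre cells, with a median log2 ratio of -0.12 over all genes at 20 CPM. With median-of-ratios scaling, which removes that shift, 231 were higher and 124 lower. Of the 10 genes named as higher, Mmp12, Slc7a2, Timp2 and Ero1a had UMIs in 22 to 40 of the 54 Lyz2-icre cells. Mmp12 was at 122 CPM (81.2 to 177) and 908 CPM (805 to 1022), control first, a log2 ratio of 2.84 against 0.73 in the C1q-positive cells without Chil3. Slc7a2 went from 113 to 705 CPM (log2 ratio 2.58 against 0.79) and had UMIs in 7 of 27 and 40 of 54 cells. Rnase2a, a secreted ribonuclease gene of a family of similar copies, went from 13.1 to 193 CPM (13 Lyz2-icre cells). Timp2, an inhibitor of metalloproteinases, went from 39.3 to 210 CPM, and Ero1a, an oxidase of the endoplasmic reticulum induced by low oxygen, from 48.0 to 223 CPM. Arg1-rich cells were a larger share of the Lyz2-icre cells. In the Arg1-rich cells without Plac8 or Ly6c2, Mmp12 and Slc7a2 were at 1662 and 1136 CPM in 23 Lyz2-icre cells. They were at 206 and 309 CPM in 3 control cells, from 10 and 15 UMIs, and 14 of those Slc7a2 UMIs lay in 1 cell. The part that the mix of cells played in these ratios was not tested.

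Igf1 and Tnfrsf9 had no UMI in control cells and were at 118 and 102 CPM in Lyz2-icre cells, at least 9.02-fold and 7.77-fold higher by a floor of 3 counts over the group. Their UMIs lay in 10 and 7 cells, and 1 cell held 47.2% and 54.8% of them. Igf1 encodes a growth factor made by tissue macrophages, and Tnfrsf9 the costimulatory receptor 4-1BB. Retnla (Fizz1, a marker of alternative activation) was at 147.6 CPM in Lyz2-icre cells from 4 cells and had 1 UMI in control. Rsad2, an antiviral interferon-stimulated gene, was at 8.72 and 111 CPM, with 67.6% of its Lyz2-icre UMIs in 1 cell. Ccl5, a chemokine also made by T and NK cells, was at 34.9 and 187 CPM, from 5 and 12 cells.

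The genes lower in Lyz2-icre Chil3-high cells were led by monocyte genes. Hp went from 288 to 16.4 CPM (log2 ratio -3.77), Gsr from 201 to 19.7 CPM (-3.06), Vcan from 249 to 36.1 CPM (-2.63) and Plac8 from 1016 to 279 CPM (-1.85). In C1q-positive cells without Chil3 the same 4 ratios were -0.64, -0.02, -0.23 and -0.03. Among cells with Plac8 or Ly6c2 and less Arg1 (16 control and 19 Lyz2-icre cells), Hp was at 461 and 39.1 CPM, control first. Vcan was at 355 and 68.5 CPM there, and Ccr2 went the other way, at 724 and 1066 CPM. Plk3 (a stress kinase), Herpud1 (an endoplasmic reticulum stress gene), Sde2, Zc3h13 and Fam111a had log2 ratios between -1.83 and -1.51, and Mir6236, an annotated microRNA locus, -2.15. Among the 10 control cells and 32 Lyz2-icre cells without a Plac8 or Ly6c2 UMI, Herpud1 was higher and not lower in Lyz2-icre cells (log2 ratio 1.95).

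**Figure D4:**
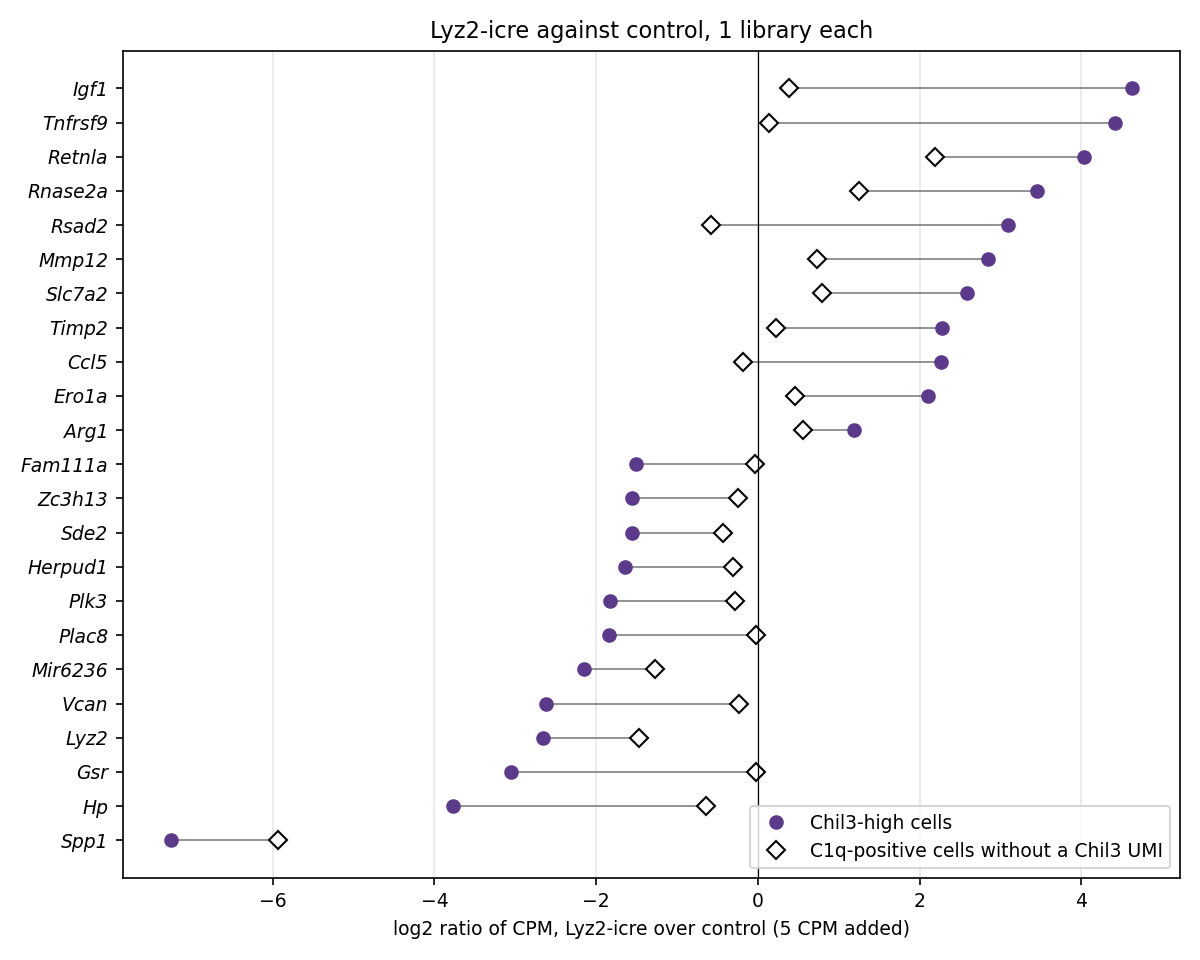
Log2 ratio of CPM, Lyz2-icre over control with 5 CPM added, in Chil3-high cells (filled circles) and in C1q-positive cells without a Chil3 UMI (open diamonds), for 20 genes named for this comparison and Spp1, Lyz2 and Arg1. Mmp12 stands at 2.84 and 0.73 and Hp at -3.77 and -0.64, and with 1 library per genotype no ratio has a replicate.

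By list, 6 of the 11 recruited monocyte genes that could be counted were lower in Lyz2-icre than control Chil3-high cells and none was higher (11.1% and 10.5% of all genes), with a median log2 ratio of -0.84. Of 22 genes of hypoxia and glycolysis, 11 were higher and none lower, with a median of 0.56. In this list Mif went from 288 to 961 CPM and Pgk1 from 497 to 951 CPM. Lipid-associated macrophage genes were higher in 7 of 11 and lower in none (median 0.63), among them Lgals3 (galectin 3), from 1540 to 3548 CPM, and Pltp (a phospholipid transfer protein), from 65.4 to 184 CPM. Alternative activation genes were higher in 5 of 10 and lower in 1 (median 0.70). Among cells without a Plac8 or Ly6c2 UMI (10 and 32 cells) the median of this list was -0.28. Of 6 MHC class II genes, 3 were higher and none lower (median 0.65). In chemokine genes 5 of 15 were higher and 4 lower, and Ccl6 went from 925 to 2925 CPM, with 33.7% of its Lyz2-icre UMIs in 1 cell. These list values between genotypes were not set against C1q-positive cells without Chil3. They are therefore not shown to be particular to the Chil3-high cells.

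To see whether the pattern was graded with Chil3, C1q-positive cells were thinned to 2000 UMIs and split by their Chil3 UMIs. Cells with 0, 1, 2 to 3 and 4 or more Chil3 UMIs numbered 3662, 112, 47 and 25 in control and 5938, 222, 125 and 66 in the Lyz2-icre library, and 296 and 843 shallower cells were left out. Fn1 was at 1062, 1772, 2415 and 3060.0 CPM over these steps in control and at 1152, 1993, 2172 and 3538 CPM in the Lyz2-icre library. Plac8 was at 42.1, 219, 404 and 940.0 CPM in control and at 48.2, 169, 472 and 364 CPM in the Lyz2-icre library. Tmem176a went the other way, from 290 to 80.0 CPM and from 179 to 22.7 CPM between the first and last steps. Between the same steps H2-Eb1 went from 4954 to 3160 CPM in control and from 6106 to 4917 CPM in the Lyz2-icre library. H2-Ab1 and Cd74 went from 6536 to 5614 CPM and from 14887 to 12848 CPM in the Lyz2-icre library. The drop of these 3 class II genes was thus smaller there than in control. Arg1 was at 1104 CPM in the first and 2894 CPM in the last step of the Lyz2-icre library, and at 707 and 920.0 CPM in control.

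**Figure D5:**
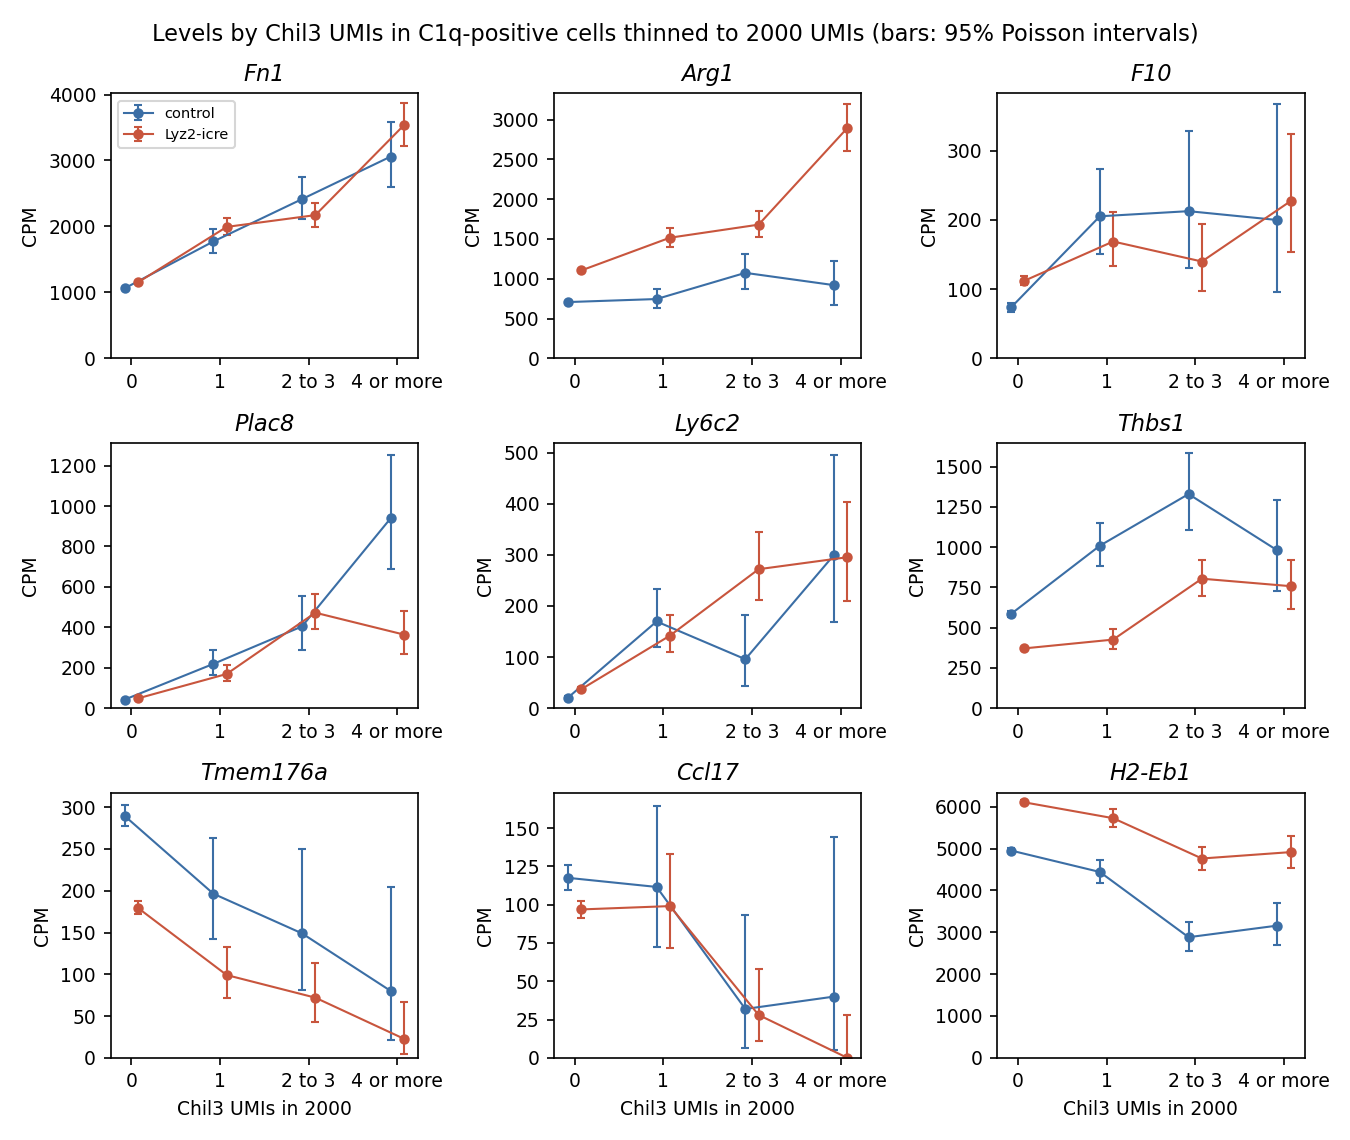
Level in CPM of 9 genes in C1q-positive cells thinned to 2000 UMIs, by Chil3 UMIs per cell (0, 1, 2 to 3, 4 or more), for the control (blue) and Lyz2-icre (red) libraries, with 95% Poisson intervals as bars. Fn1 goes from 1062 to 3060.0 CPM in control and from 1152 to 3538 CPM in Lyz2-icre cells, while Arg1 is higher in the Lyz2-icre library at each step.

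Among the thinned C1q-positive cells (3846 and 6351), the genes whose UMIs went most with those of Chil3 were Plac8 (Spearman rho 0.21 in control and 0.20 in Lyz2-icre cells), Ly6c2 (0.19 and 0.18) and Fn1 (0.14 and 0.16). S100a6, Il1b, S100a11, Thbs1, S100a4, Tgfbi and Ifitm3 followed, with rho between 0.07 and 0.11. These values are descriptions over cells that share a library and have sparse counts.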

How the data were processed

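Sorted CD45-positive cells of MC38 tumours from 1 control and 1 Lyz2-icre library were used. The values are raw UMI counts per gene and cell deposited by the authors for called cells (55357 genes, 23098 barcodes). Per the submitters' processing notes, bcl2fastq 5.0.1 and Cell Ranger were used with mm10, and per the file headers the Cell Ranger version was 8.0.1. The annotation release is not given in the sources used here. Coordinates are from GENCODE vM21, the same build.

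UMIs were summed over the cells of a group and scaled to CPM with numpy 2.4.6, scipy 1.17.1 and pandas 2.3.3 (Python 3.11.15, plots with matplotlib 3.10.9). Log2 ratios carry 5 CPM added. Poisson, Clopper-Pearson and conditional binomial intervals are at 95%. No doublet caller was run and free RNA was not removed. The comparison was run on simulated Poisson counts of summed cells. The changes put in were larger than 1.5-fold and lay in well-expressed genes only. Low genes changed by 1.5-fold and spread between cells were not simulated. The Chil3-high cells, 28 gene lists and 16 marker lists were chosen with earlier results of these data known, and 1 list symbol was changed to the name in the files (Ero1a).

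Genes named between groups were the 12 highest and 12 lowest by the library with the smaller ratio, with 50 CPM and 30 UMIs in the higher group and 1.5-fold in both libraries. Between genotypes they were the 10 highest and 10 lowest. Genes used in the selection, Spp1, Lyz2, sex-linked marker genes, genes without a proper name and those of mitochondria, ribosomes, haemoglobin and antigen receptors were left out of both rankings. Of each list the 2 highest and 2 lowest could be named. Pgk1, F7 and, in the groups where they are given, Il1b and the other genes of the 2 kinds of cell were named after their values were seen. The summed levels of the macrophage and monocyte marker lists are not reported here. Alternatives changed the filters, the limits, the scaling, the pseudocount, the comparison cells and the depth.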

Additional observations from a re-analysis of the deposited data

Results flagged for a closer look

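The named genes Igf1, Tnfrsf9, Rsad2, Mmp12 and Fam111a differed between Chil3-high and C1q-positive cells without a Chil3 UMI in opposite directions in the 2 libraries. This difference was not tested, since each genotype had 1 library. The log2 ratio in the Lyz2-icre library minus that in control was 4.24 for Igf1, 4.28 for Tnfrsf9, 3.67 for Rsad2, 2.12 for Mmp12 and -1.46 for Fam111a. Among 2481 genes that could be counted in both libraries, 10 (0.403%) were at least 1.5-fold apart in opposite directions.

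Mmp12 was at 122 against 315 CPM in control and 908 against 525 CPM in the Lyz2-icre library. Without the cell that held most of its UMIs it was at 687 CPM in the Lyz2-icre cells. Igf1 without its top cell was at 64.5 against 27.7 CPM, Tnfrsf9 at 47.8 against 47.8 CPM and Rsad2 at 37.2 against 30.5 CPM. Fam111a was at 139.6 against 74.97 CPM in control (32 UMIs) and at 45.9 against 72.7 CPM in the Lyz2-icre library (14 UMIs).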

How the results depend on the processing

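The ratios of shares stayed within their counting intervals under every setting run, from 0.977 in male cells to 2.01 for Chil3-high cells without a Plac8 or Ly6c2 UMI (of kept cells). Counts of genes depended more on the settings; the cause was not tested. The 20 genes higher in both libraries became 31 with Chil3 at 0.1%, 35 with C1q at 0.1%, 11 after thinning to 2000 UMIs, 13 in female cells, 218 with no filter on low genes and 13 without cells with a Plac8 or Ly6c2 UMI. The 105 lower genes became 51 (Chil3 at 0.1%), 332 (thinned), 188 (female), 249 (mean of per-cell CPM), 512 (no filter on low genes), 12 (100 CPM), 243 (comparison with C1q-positive cells without other limits) and 384 (no Plac8 or Ly6c2 UMI). Between genotypes the 163 higher genes became 269 (mean of per-cell CPM) and 2896 (no filter on low genes). The 172 lower genes became 286 (Chil3 at 0.1%), 262 (C1q at 0.1%), 31 (thinned), 3401 (no filter on low genes) and 53 (no Plac8 or Ly6c2 UMI).

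Of 1465 values of named genes under alternatives, 1249 stayed within the counting interval of the reported value, 210 lay outside it without a turn in a counted direction and 6 turned direction. These 6 were Ly6a in Lyz2-icre cells with Chil3 at 0.1% (0.16), F13a1 in control (-0.20) and Lyz2-icre (-0.032) and Gda in control (-0.14) after thinning, and, without cells with a Plac8 or Ly6c2 UMI, Rgcc in control (-0.86) and Herpud1 between genotypes (1.95). Of 1588 values of lists, 1 turned, the alternative activation genes between genotypes without those cells (-0.28). Male cells (3 and 4) and a Chil3 limit of 0.4% (7 control cells) left under 10 cells, so gene values were not run. Settings that leave out cells of Plac8 or Ly6c2, cells under 2000 UMIs or the top Chil3 cell were chosen after seeing the data. No paired analysis was possible because each genotype had 1 library. Depth limits the higher direction most, since 30 UMIs required 131 CPM in the control and 98.4 CPM in the other Chil3-high cells.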

Other observations

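Among 30 myeloid transcription factors, Tfec, a relative of Mitf, was at 78.5 against 19.0 CPM in control and at 55.7 against 26.5 CPM in Lyz2-icre Chil3-high cells, and Cebpb, a factor of monocyte differentiation, at 214 against 83.6 and at 157 against 88.2 CPM. Both were at the higher end of the list in each library, with UMIs of Tfec in 9 and 13 cells. In the list of alveolar macrophage genes, Atp6v0d2, a proton pump subunit, had no UMI in 27 control cells and 29 UMIs in 9 of 54 Lyz2-icre cells (95.1 against 9.60 CPM in cells without Chil3), while Ear2 was at 30.5 and 42.6 CPM, close to the comparison cells. Receptors for colony-stimulating factors differed little, with medians of 0.35 and -0.01. Pf4 was at 1099 CPM in control Chil3-high cells, but 76.2% of its UMIs lay in 1 cell, and without it the level was 285 CPM, under the 669.5 CPM of the comparison cells.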
